A study of Mus musculus with 4 samples.

Results

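The genes described here are 34 genes of purinergic signalling, listed by name and found under the same symbol among the 45703 genes of 1 count table: 7 P2X channels, 7 P2Y receptors, 4 adenosine receptors, and 16 enzymes and transporters that release, break down or take up nucleotides and adenosine. The table comes from 4 RNA-seq libraries, 1 for each of 4 cultures of cortical astrocytes, numbered 1 to 4. They form 1 group, CD-1 mice at P4, an outbred wild-type strain, with cells grown in serum medium with B27 and EGF at 10 ng/ml and kept for 1 h in serum-free Ham's medium before RNA was taken, per the labels' protocols. The same protocols give reseeding on day 6 in vitro and 3 days of culture after it. The stated purpose of the study was a profile of calcium signalling components in such cells. No antibody or sorting step is named, so the cultures may hold other cells besides astrocytes, and the number of animals behind a culture is not stated.

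Astrocytes use extracellular ATP as a messenger. P2X receptors are channels that ATP opens directly and that let calcium in, while P2Y receptors are G protein-coupled, some through Gq to calcium stores and some through Gi. Enzymes on the cell surface strip phosphates from ATP until adenosine is left. Adenosine then acts on its own G protein-coupled receptors or is carried into the cell, where adenosine kinase returns it to AMP.

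The libraries held 37300485 to 42369109 counts. CPM is counts per 1000000 counts of a library, RPKM is CPM per kilobase of a gene's combined exons, and the word expressed is used of a gene that reached 1 CPM in all 4 libraries. Cultures 1 to 3 were close to repeats of each other and culture 4 stood apart: the chi-square per degree of freedom over genes was 2.11 to 3.17 within cultures 1 to 3 and 39.4 to 41.1 for culture 4 against each of them. P-values below measure only the spread between these 4 libraries, which may in part be technical. All 10 astrocyte markers were expressed, among them Slc1a3 at 2601 ± 78.6 CPM and Gfap at 1339 ± 373 CPM (SD, n = 4, as for every ± on a level below), with S100b at 11.8 ± 3.87 CPM and Gjb6 at 2.46 ± 0.92 CPM at the low end. Of genes listed for other cells, 11 of 12 for microglia and macrophages and 6 of 8 for the oligodendrocyte lineage were expressed. So were 4 of 6 mural, 4 of 6 fibroblast, 4 of 7 neuronal, 2 of 4 ependymal and 2 of 7 endothelial genes. Of all protein-coding genes 58.1% were expressed, so these counts alone do not show which cells were present. Rbfox3, Snap25, Sox10, Pecam1, Cdh5, Kcnj8 and Lum were under 1 CPM in every library. Pdgfra counts in both the oligodendrocyte and fibroblast lists, and Cspg4 in both the oligodendrocyte and mural lists. Of these lists, Mog, Cldn5 and Tmem212 stood at 3 counts or fewer in all, and no microglial gene did. In bulk RNA, fewer cells of a type and less RNA per cell cannot be told apart.

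The 2 adenosine receptor genes that stand at the ends of the results are shown first by their promoters, Adora1 as the most abundant receptor and Adora2b as the most uneven between cultures. Both windows are the 250 bases before a RefSeq start, GRCm38.p6, at chr1:134234857-134235106 on the minus strand for Adora1 and at chr11:62248734-62248983 on the plus strand for Adora2b. Capitals mark the GC box letters GGGCGG on either strand. Of the RefSeq starts of these genes, the one shown for Adora1 is the farthest upstream whose first bases lie in a GENCODE transcript.
Adora1: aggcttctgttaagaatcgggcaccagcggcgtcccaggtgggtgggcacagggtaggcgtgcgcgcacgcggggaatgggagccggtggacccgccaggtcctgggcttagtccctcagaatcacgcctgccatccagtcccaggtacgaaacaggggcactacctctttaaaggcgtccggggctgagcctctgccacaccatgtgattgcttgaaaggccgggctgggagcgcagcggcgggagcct
Adora2b: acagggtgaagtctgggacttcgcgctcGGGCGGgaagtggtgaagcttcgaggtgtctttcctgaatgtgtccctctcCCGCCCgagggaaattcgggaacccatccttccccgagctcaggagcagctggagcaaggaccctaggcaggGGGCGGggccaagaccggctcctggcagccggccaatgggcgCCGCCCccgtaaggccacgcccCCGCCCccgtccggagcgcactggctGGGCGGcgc

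The Adora2b window held 6 matches of GGGCGG and the printed Adora1 window 0, where 32.7% of 32851 RefSeq windows of this length hold at least 1. The window before the other Adora1 start, chr1:134235458-134235707, held 3, so the contrast depends on the start chosen. Neither printed window held TATAAA, which 12.4% of windows hold, TGACGTCA (1.55%) or ACGTG (16.6%), searched on both strands; the other Adora1 window held 1 ACGTG. The Adora2b window had 22 CpG, the printed Adora1 window 18 and the other Adora1 window 19.

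Of the 34 genes, 24 were expressed, beside 32.2% of all genes of the table and 58.1% of its protein-coding genes. Among receptors 11 of 18 passed, and among enzymes and transporters 13 of 16. The 10 that did not pass were P2rx1, P2rx2, P2rx3, P2ry4, P2ry13, P2ry14, Adora3, Entpd3, Slc17a9 and Enpp3. Of these, 3 reached 1 CPM in some libraries only: P2ry13 in cultures 1 to 3, P2rx2 in culture 1 and Enpp3 in culture 4. All 34 had more than 3 counts over the libraries, P2ry4 with only 4. Without culture 4 the number expressed was 25, P2ry13 being the gene added.

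**Figure D1:**
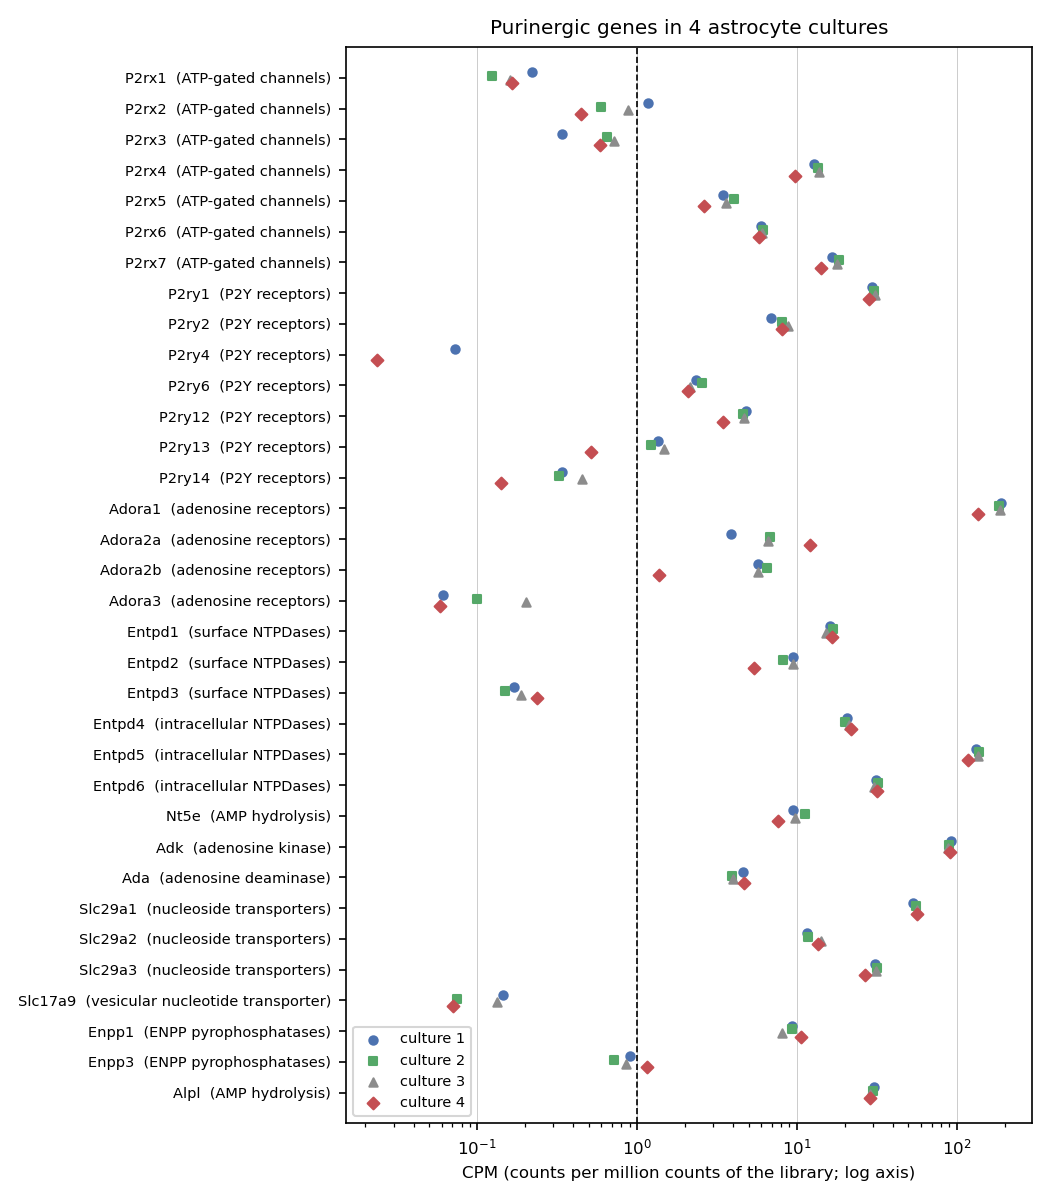
CPM of each of the 34 genes (rows, with their role) in the 4 cultures (symbols) on a log axis, with a dashed line at 1 CPM; P2ry4 had no count in cultures 2 and 3 and shows no symbol there. Adora1 and Entpd5 lie above 100 CPM in every culture, and 7 genes stay left of the line throughout.

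Adora1, the Gi-coupled receptor with high affinity for adenosine, was the most abundant of the 34 genes. It had 189, 185, 187 and 136 CPM in cultures 1 to 4, a mean of 174 ± 25.6 CPM or 29.9 ± 4.40 RPKM, and ranked 1157th by mean CPM among all genes of the table (GeneID 11539, GRCm38.p6 chromosome 1, 134199215 to 134235457, minus strand). Adora1 made up 82.8% to 88.0% of the summed RPKM of the 4 adenosine receptors in a library.

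The Gs-coupled receptors were far lower and went opposite ways in culture 4. Adora2b, the low-affinity receptor, had 5.72, 6.52, 5.71 and 1.37 CPM in cultures 1 to 4 (mean RPKM 2.62 ± 1.27). Adora2a, the high-affinity Gs-coupled receptor, had 3.89, 6.77, 6.57 and 12.1 CPM (mean RPKM 2.48 ± 1.16). Culture 4 was thus the lowest for Adora2b and the highest for Adora2a. Adora3, a Gi-coupled receptor, had 16.5 counts in all.

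Per length, Adora1 was 12.3-fold above Adora2b (log2 ratio 3.62 with an SE of 0.28, edgeR adjusted p = 1.99e-05), and it was the higher one in 4 of 4 libraries. The log2 ratio was 3.17 to 3.39 in cultures 1 to 3 and 4.98 in culture 4. Per count, with no correction for length, Adora1 was 38.7-fold above, and GENCODE coding lengths gave 39.4-fold. Adora2b and Adora2a were not told apart, with 0.08 as log2 ratio, an SE of 0.58 and an edgeR adjusted p of 0.892, since the ratio was 0.48 to 1.23 in cultures 1 to 3 and -2.46 in culture 4. Without culture 4 it was 0.75 per exon length (edgeR, adjusted p = 3.59e-05). Per count these genes were nearly equal in cultures 1 to 3, at a mean of 5.98 CPM for Adora2b and 5.74 CPM for Adora2a. Their combined exons span 1844 bases for Adora2b and 2952 for Adora2a, and other lengths were not tried without culture 4. Adora2a was 56.4-fold above Adora3 (edgeR, adjusted p = 7.47e-06).

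Among P2Y receptors, P2ry1, the Gq-coupled ADP receptor, stood first and was even between cultures. It had 29.6, 30.6, 31.0 and 28.3 CPM in cultures 1 to 4 (7.67 ± 0.31 RPKM) and 55.6% to 58.5% of the family's summed RPKM. P2ry2, the receptor for ATP and UTP that also couples to Gq, had 6.94, 8.08, 8.79 and 8.14 CPM (2.61 ± 0.25 RPKM), with culture 4 inside the range of the others. P2ry6, the UDP receptor, had 2.08 to 2.54 CPM. P2ry4, which answers to UTP, had 0.073 CPM in culture 1, 0.0236 in culture 4 and no count in cultures 2 and 3.

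The 3 Gi-coupled P2Y receptors were below P2ry1 and P2ry2 and were lowest in culture 4. P2ry12, an ADP receptor best known from platelets and microglia, had 4.84, 4.61, 4.66 and 3.45 CPM in cultures 1 to 4. P2ry13, another ADP receptor, had 1.36, 1.22, 1.47 and 0.519 CPM. P2ry14, the UDP-glucose receptor, had 0.341, 0.324, 0.456 and 0.142 CPM, which is 50 counts in all. In each of these genes culture 4 lay below the other 3. It was also the lowest for P2ry1, at 28.3 against 29.6 to 31.0 CPM, and for P2ry6, at 2.08 against 2.14 to 2.54 CPM. The microglia and macrophage list, taken as a sum of 12 genes, also stood lower in culture 4, at 157 CPM against 225 to 238 CPM in cultures 1 to 3, and 11 of its 12 genes were lower there, Tmem119 at 0.76 against 3.12 to 3.54 CPM and Trem2 the exception. Its part in the P2Y values was not tested. The 3 Gi-coupled genes lie close together on chromosome 3, P2ry12 and P2ry13 5.4 kb apart and P2ry13 and P2ry14 54.4 kb apart. All are on the minus strand inside Med12l, a plus-strand gene at 16.02 CPM. No source used here says whether the counting used strand.

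Neighbours in the P2Y order differed down to P2ry13. P2ry1 was 2.95-fold above P2ry2 (log2 ratio 1.56 ± 0.08, SE; edgeR, adjusted p = 1.92e-06) and P2ry2 was 1.52-fold above P2ry12 (edgeR, adjusted p = 0.00519). P2ry12 was 1.77-fold above P2ry6 (edgeR, adjusted p = 0.000632), and P2ry6 was 2.201-fold above P2ry13 (edgeR, adjusted p = 0.00414). All were higher in 4 of 4 libraries.

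Of the ATP-gated channels, 4 of 7 were expressed: P2rx4, P2rx5, P2rx6 and P2rx7. P2rx7, which opens only at high ATP, had 16.6, 18.3, 17.8 and 14.1 CPM in cultures 1 to 4, and P2rx4, sensitive to low ATP, had 12.8, 13.5, 13.7 and 9.75 CPM. P2rx6, a subunit that forms poor channels on its own, had 5.78 to 6.16 CPM, and P2rx5 2.64 to 4.07 CPM. Culture 4 was the lowest library for each of the 4. P2rx2 had 1.168, 0.599, 0.885 and 0.448 CPM, P2rx3, the subunit of sensory neurons, 0.341 to 0.724 CPM, and P2rx1 0.125 to 0.219 CPM. P2rx4 and P2rx7 are neighbours on chromosome 5, 15.2 kb apart on the plus strand, and the P2rx4 gene overlaps Camkk2 on the other strand, which had 65.4 CPM.

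Which P2X gene led depended on whether gene length was corrected for, and P2rx4 led under each length used. Per combined exon length P2rx4 (4.55 ± 0.67 RPKM) was 1.75-fold above P2rx7 (2.59 ± 0.29 RPKM; log2 ratio 0.81 ± 0.06, SE; edgeR, adjusted p = 2.01e-05), and per count it was below it, at a log2 ratio of -0.43 (edgeR, adjusted p = 0.000555). The combined exons of P2rx7 span 6449 bases and those of P2rx4 2729 bases, where the GENCODE transcripts with the longest coding sequence have 4936 bases for P2rx7 and 2702 for P2rx4. With those transcript lengths P2rx4 was 1.35-fold above P2rx7 (edgeR, adjusted p = 0.000508), and with GENCODE coding lengths 1.14-fold (edgeR, adjusted p = 0.0265). P2rx7 and P2rx6 were not told apart per combined exon length, at a ratio of 1.02 (edgeR, adjusted p = 0.801). Per count P2rx7 was 2.77-fold above P2rx6 (edgeR, adjusted p = 5.02e-06). It was also above P2rx6 by 1.81-fold with GENCODE coding lengths (edgeR, adjusted p = 7.88e-05) and 1.31-fold with GENCODE transcript lengths (edgeR, adjusted p = 0.00409). P2rx6 was 2.08-fold above P2rx5 (edgeR, adjusted p = 0.000194) and P2rx5 3.74-fold above P2rx2 (edgeR, adjusted p = 0.000212).

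**Figure D2:**
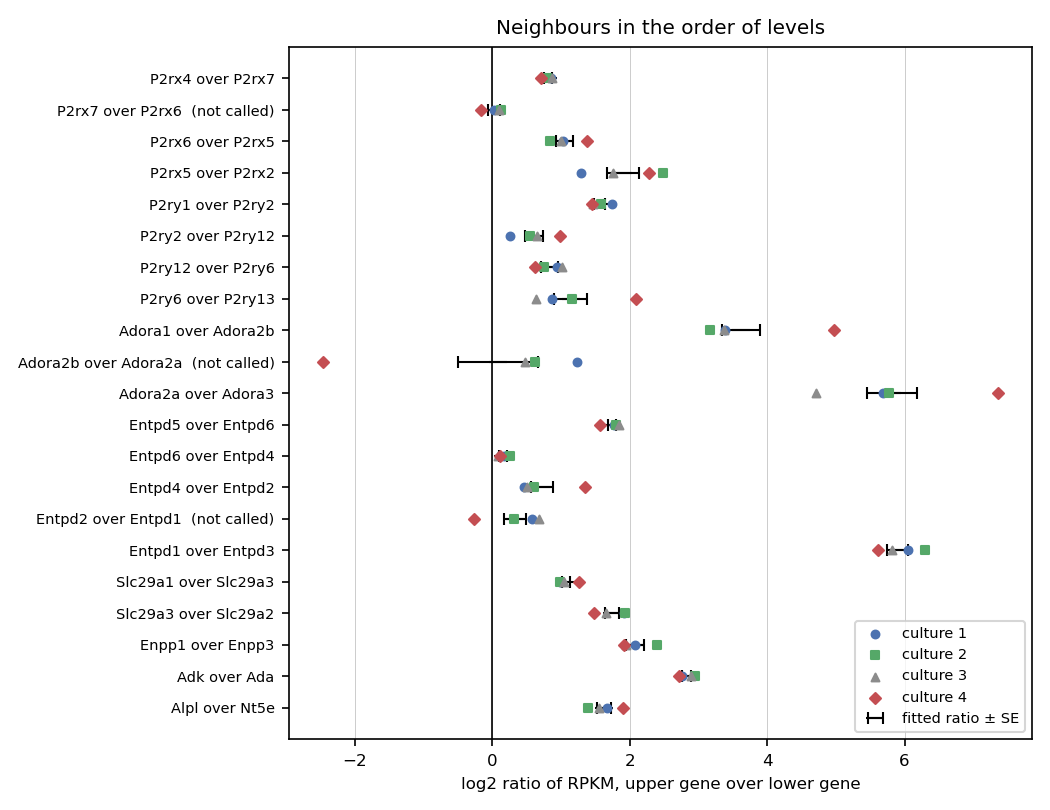
Log2 ratio of RPKM between neighbours in the order of levels within each family, with Adk over Ada and Alpl over Nt5e, in each culture (symbols) and as fitted (bar, ± SE). The 3 pairs marked as not called are P2rx7 over P2rx6, Adora2b over Adora2a and Entpd2 over Entpd1, and in each of them culture 4 lies on the other side of 0 from cultures 1 to 3.

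The enzymes that act on ATP and ADP at the cell surface were expressed at moderate levels. Entpd1 (CD39), which takes ATP through ADP to AMP, had 16.1, 16.8, 15.2 and 16.6 CPM in cultures 1 to 4 (3.26 ± 0.15 RPKM). Entpd2, which prefers ATP and leaves ADP, had 9.42, 8.21, 9.46 and 5.38 CPM (4.19 ± 0.99 RPKM), lowest in culture 4. Entpd3 had 0.15 to 0.236 CPM, and Entpd8, its surface relative outside the list, 1 count in all. Entpd2 and Entpd1 were not told apart per exon length (log2 ratio 0.33 ± 0.16, SE; edgeR, adjusted p = 0.0884), but without culture 4 Entpd2 was above, at 0.52 (edgeR, adjusted p = 7.88e-06). Their order turned round with the length: the log2 ratio was -1.02 per count (edgeR, adjusted p = 0.000931) and -0.71 per GENCODE transcript length (edgeR, adjusted p = 0.00545). Entpd1 was 59.7-fold above Entpd3 (edgeR, adjusted p = 9.45e-08). The Entpd1 locus also holds a pseudogene on its own strand, Gm8783, listed at 26.9 CPM.

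The pyrophosphatase Enpp1, which cuts ATP to AMP and pyrophosphate, had 9.30, 9.30, 8.04 and 10.7 CPM in cultures 1 to 4. Enpp3, its relative 61.7 kb away on chromosome 10, had 0.723 to 1.16 CPM. Enpp1 was 4.21-fold above Enpp3 per exon length and 10.3-fold per count (edgeR, adjusted p = 7.77e-06 for the ratio per exon length).

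The NTPDases of the secretory pathway were the larger part of the family. Entpd5, an enzyme of the endoplasmic reticulum that hydrolyses UDP formed in protein glycosylation, had 133, 139, 136 and 117 CPM in cultures 1 to 4 (25.4 ± 1.86 RPKM) and was second of the 34 genes. Entpd6 had 31.2, 32.0, 30.5 and 31.7 CPM (7.59 ± 0.17 RPKM). Entpd5 was 3.35-fold above Entpd6 (log2 ratio 1.74 ± 0.06, SE; edgeR, adjusted p = 3.28e-07), and 2.18-fold with GENCODE transcript lengths.

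Entpd4, a Golgi and lysosomal enzyme, has a copy on chromosome 14, Entpd4b, and the 2 genes were listed with identical counts in every library, 852, 801, 796.5 and 924.5 in cultures 1 to 4. The deposited 20.97 ± 0.80 CPM of Entpd4 (6.80 ± 0.26 RPKM) is therefore a share of reads that were not assigned to 1 copy, and both copies together had 39.95 to 43.6 CPM. With the counts as listed, Entpd6 over Entpd4 was 0.16 on the log2 scale, with an SE of 0.06 and an edgeR adjusted p of 0.0313. The call was lost without culture 1 (edgeR, adjusted p = 0.102), culture 2 (0.135) or culture 3 (0.0507), and with cultures 1 to 3 summed (0.301). With the copies summed, a setting chosen after the data were seen, it was -0.84 (edgeR, adjusted p = 2.63e-06), so the order of these genes also changed with how the reads are split. Entpd4 was 1.65-fold above Entpd2 with the counts as listed (edgeR, adjusted p = 0.00461).

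For the last step to adenosine, the cultures had both Alpl, the tissue-nonspecific alkaline phosphatase, which can take ATP all the way down, and Nt5e (CD73), the ecto-5'-nucleotidase. Alpl had 30.5, 29.95, 28.9 and 28.8 CPM in cultures 1 to 4 (8.15 ± 0.22 RPKM). Nt5e had 9.49, 11.3, 9.76 and 7.60 CPM (2.66 ± 0.42 RPKM). Alpl was higher in every library, by 3.09-fold per exon length (log2 ratio 1.63 ± 0.10, SE; edgeR, adjusted p = 5.3e-06) and by 4.95-fold with GENCODE transcript lengths.

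Of the genes for adenosine uptake and its return to AMP, Slc29a1 and Adk stood highest and differed little between cultures. The equilibrative transporter Slc29a1 (ENT1) of the plasma membrane had 53.5, 55.4, 56.7 and 56.5 CPM in cultures 1 to 4 (11.9 ± 0.31 RPKM). Slc29a3 (ENT3), which sits in lysosomes, had 26.9 to 31.9 CPM, and Slc29a2 (ENT2) 11.5 to 14.1 CPM. Adk, adenosine kinase, had 92.4, 90.3, 88.4 and 91.4 CPM (17.9 ± 0.34 RPKM), while Ada, adenosine deaminase, which makes inosine, had 4.60, 3.94, 3.99 and 4.65 CPM (2.52 ± 0.22 RPKM). The concentrative transporters Slc28a1, Slc28a2 and Slc28a3, outside the list, had 1 or 2 counts each. Slc17a9, the vesicular nucleotide transporter that loads ATP for exocytosis, had 0.0708 to 0.146 CPM, 17 counts in all.

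Adk was 7.09-fold above Ada per exon length (log2 ratio 2.83 ± 0.06, SE; edgeR, adjusted p = 5.21e-08) and 21.1-fold per count. With GENCODE coding lengths it was 20.6-fold above, and with GENCODE transcript lengths 20-fold. Slc29a1 was 2.10-fold above Slc29a3 (edgeR, adjusted p = 3.26e-06) and 4.62-fold with GENCODE transcript lengths. Slc29a3 was 3.34-fold above Slc29a2 (edgeR, adjusted p = 3.83e-06) and 1.18-fold with those lengths. In all of these pairs the upper gene was higher in 4 of 4 libraries.

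**Figure D3:**
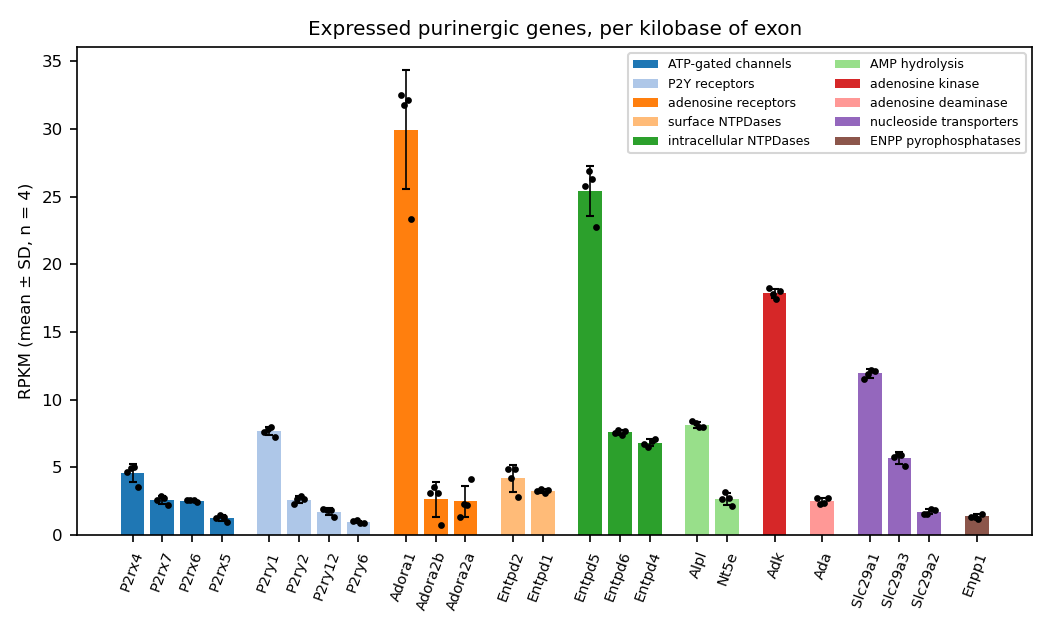
Mean RPKM ± SD (n = 4) of the 24 expressed genes, grouped by role, with points for cultures 1 to 4 from left to right. Adora1 at 29.9, Entpd5 at 25.4, Adk at 17.9 and Slc29a1 at 11.9 RPKM stand above the rest, and the Entpd4 bar holds only its listed share of reads.

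Summed by role, RPKM was 35.1 ± 4.59 for adenosine receptors, 13.5 ± 0.83 for P2Y receptors and 11.4 ± 1.30 for P2X channels. It was 39.8 ± 1.62 for intracellular NTPDases, 7.51 ± 0.90 for surface NTPDases, 1.68 ± 0.21 for the ENPP genes, 10.8 ± 0.57 for Nt5e and Alpl together, and 19.3 ± 0.51 for the nucleoside transporters. These sums are transcript levels on the exon length scale and say nothing of protein or activity.

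Within families, 63 pairs of the listed genes were tested, with Adk over Ada and Alpl over Nt5e counted in. Pairs in which neither gene was expressed were left out. The fit also held every other pair of paralogues in the table that passed the same filter, 39425 in all. Of the 63, 60 differed (edgeR, Benjamini-Hochberg adjusted over all pairs), beside 95% of all pairs tested, and 18 of the 21 neighbouring pairs did. The share is near that of all pairs. The gene length moved 14 of the 21 neighbouring ratios by more than 1.5 times in at least 1 of the other length settings.

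**Figure D4:**
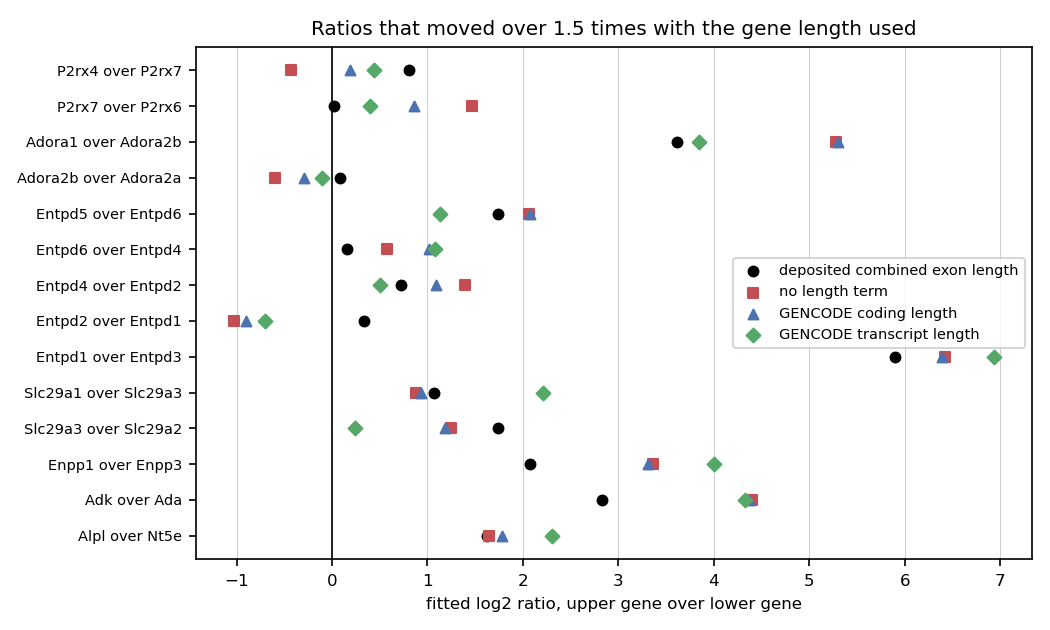
Fitted log2 ratio of the 14 neighbouring pairs that moved over 1.5 times with the gene length, under the deposited combined exon length, no length term, GENCODE coding length and GENCODE transcript length (symbols). P2rx4 over P2rx7, Adora2b over Adora2a and Entpd2 over Entpd1 have symbols on both sides of 0.

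Culture 4 differed from the other cultures most in the Gs-coupled adenosine receptors and P2ry13. Of the 25 genes that averaged 1 CPM or more, culture 4 was past 2-fold below the mean of the other 3 in 2, Adora2b at 1.37 CPM against 5.71 to 6.52 CPM (4.37-fold lower) and P2ry13 at 0.519 CPM against 1.22 to 1.47 CPM (2.61-fold lower), beside 1.89% of 15217 genes. It was past 2-fold above in 1, Adora2a at 12.1 CPM against 3.89 to 6.77 CPM (2.10-fold higher), beside 0.598% of genes. With culture 1 left out of the comparison, Adora2a was under 2-fold and 2 of the 25 genes were left. Next came Entpd2, at 5.38 CPM in culture 4 against 8.21 to 9.46 CPM and P2rx5, at 2.64 against 3.48 to 4.07 CPM. These are values of 1 library against 3 with no replicate, and no test is given.

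Each other culture was set against its own remaining 3 in the same way. In culture 1, Adora2a was past 2-fold lower (3.89 against 6.57 to 12.1 CPM), beside 0.204% of genes. Cultures 2 and 3 alone, at 6.77 and 6.57 CPM, were under 2-fold above it, so the call rests on including culture 4 at 12.1 CPM. Culture 2 had 0 of 25 past 2-fold, beside 0.138% of genes lower and 0.0131% higher. Culture 3 also had 0 of 25, beside 0.158% lower and 0% higher.

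Culture 4 lay below the whole range of the other cultures in 15 of the 25 genes, above it in 4 and inside it in 6, beside 35.2% of all genes below and 47% above. The 15 below included all 4 expressed P2X genes, P2ry1, P2ry6, P2ry12, P2ry13, Adora1, Adora2b, Entpd2, Entpd5, Nt5e, Slc29a3 and Alpl. The 4 above were Adora2a, Entpd4, Ada and Enpp1. The median log2 of culture 4 over the others was -0.10 for the 25 genes and 0.03 for all 15217. Among astrocyte markers, 6 of 10 were lower in culture 4 and 4 higher, and their sum was at 6094 CPM against 7021 to 7174 CPM. Gfap was at 780 CPM against 1498 to 1555 CPM, S100b at 6.11 against 12.7 to 14.5 CPM and Gjb6 at 1.09 against 2.84 to 3.02 CPM. The largest rise was in Slc1a2, at 368 against 285 to 311 CPM. Of the lists for other cells, the summed fibroblast list was at 512 CPM in culture 4 against 1334 to 1420 CPM. That sum was mostly Col1a1, at 72.4 against 570 to 623 CPM, and Col1a2, at 410 against 719 to 749 CPM. Pdgfra of the same list was higher in culture 4, at 20.5 CPM against at most 13.5 CPM, and Dcn and Lum stayed under 1 CPM. The endothelial list was at 8.28 against 14.1 to 15.6 CPM, a fall mostly in Flt1, at 1.53 against 6.06 to 6.58 CPM. The neuronal list was at 47.1 against 61.0 to 62.0 CPM. Higher in culture 4 were the oligodendrocyte list, at 1701 against 1548 to 1597 CPM, and the proliferation list, at 1458 against 1104 to 1123 CPM. The mural sum, mostly Acta2, was within the range of the other cultures, with Pdgfrb at 20.9 CPM in culture 4 against 30.4 to 31.4 CPM. Their part in these differences was not tested.

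**Figure D5:**
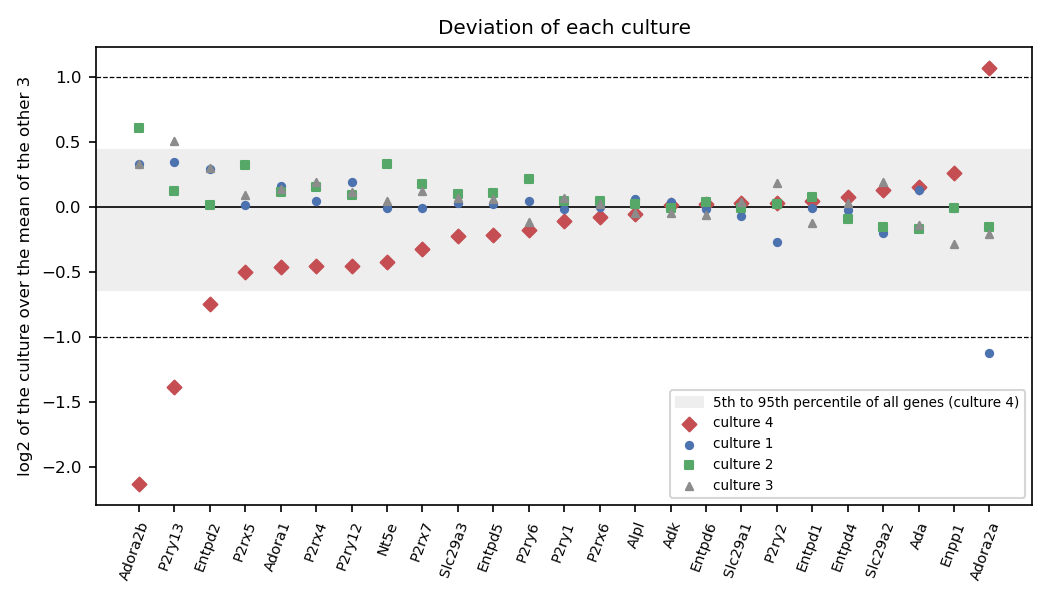
Log2 of each culture's CPM over the mean of the other 3 for the 25 genes that averaged 1 CPM or more, ordered by culture 4, with dashed lines at 2-fold and a band for the 5th to 95th percentile of all genes in culture 4. Adora2b, P2ry13, Entpd2 and Adora2a lie outside the band in culture 4.

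The spread between cultures was described by edgeR's biological coefficient of variation, or BCV, of which 28 of the genes had a value after its filter on low counts. Their median BCV was 0.116, against 0.0941 over 17105 genes, and 19 of the 28 were above that median. Without the filter the order turned round, with 0.118 for all 34 genes against 0.126 over 28570 genes, and 16 of 34 above. Among the 17105 genes kept by the filter, Adk (0.0592) and Slc29a1 (0.0595) were some of the most even, at the 2.19th and 2.695th percentile. Adora2b (0.459), Adora2a (0.331), P2ry13 (0.318) and P2rx2 (0.293) lay at the 98.1st to 99.7th percentile. Without culture 4 the medians were 0.0271 for 29 of the listed genes and 0.0255 for all genes, so most of this spread came with that library. Adora2a kept a BCV of 0.110 without it.

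Lists of relatives and partners cover some other genes of purine handling and signalling, to be read beside the 58.1% of protein-coding genes that were expressed. Of 20 intracellular purine enzymes in the table, 15 were expressed, among them the adenylate kinases Ak3 at 300.3 ± 9.82 CPM and Ak1 at 154 ± 13.6 CPM, Pnp, which cleaves inosine, at 209.5 ± 1.598 CPM, and the AMP deaminase Ampd3 at 139 ± 20.1 CPM. Xanthine oxidase, Xdh, had 1.95 ± 0.70 CPM and was under 1 CPM in culture 4. Of 17 relatives of receptors, enzymes and transporters 7 were expressed, with Enpp5 at 91.9 ± 10.4 CPM and Cant1 at 76.9 ± 3.89 CPM, while Dpp4 had 2.4 counts in all.

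Of 6 genes for ATP release by channels, 4 were expressed, with connexin 43 (Gja1) at 417 ± 53.7 CPM, the volume-regulated channel subunit Lrrc8a at 55.2 ± 5.30 CPM and Panx1 at 10.9 ± 1.29 CPM, against 0.106 ± 0.04 CPM for Slc17a9. Of 21 genes that couple the receptors to calcium and cyclic AMP, 20 were expressed. Gnai2 and Gnao1, through which Adora1 can act, had 890.5 ± 34.02 and 583 ± 58.5 CPM, and Gnas, which the Gs-coupled receptors use, had 1345 ± 65.2 CPM. Gnaq, the partner of P2ry1, had 154 ± 5.08 CPM.

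Promoter windows were found for 27 of the 34 genes in the RefSeq table. In 1 window a gene, the one farthest upstream, the 20 expressed genes held a median of 15.5 CpG (3 to 23) and the 7 not expressed a median of 5 (0 to 11). Over all protein-coding genes with a window the medians were 16 and 2, also higher in expressed genes. P2ry12 and P2rx6 were expressed with 3 CpG each.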

How the data were processed

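Libraries were made from poly-A RNA with a stranded kit and 14 cycles of PCR, from RNA with an integrity number above 9.3, per the labels' protocols. Per the file headers and the labels, the authors aligned and counted the reads and deposited unnormalized estimated counts per RefSeq gene, with combined exon lengths. Of the values above 0, 31.7% were not whole, and 9 of the 34 genes had such split counts. Per the submitters' processing notes, the tools included STAR 2.7.2b, featureCounts 1.6.4 and the trimmer cutadapt, on GRCm38.p6, with settings not given in the sources used here.

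CPM used raw library sums. At these depths 3 counts were 0.0708 to 0.0804 CPM, a limit that covers counting error only, since PCR copies of 1 molecule cannot be told from separate molecules here. Pairs of protein-coding genes that share a symbol stem of 2 to 50 genes, with 1 gene expressed and the other above 3 counts, were fitted with edgeR 4.0.16 (R 4.3.3; quasi-likelihood test, two-sided) on rounded counts, with terms for library and gene and an offset of library size times exon length, adjusted by Benjamini-Hochberg at 0.05. The design had named counts as deposited; rounding departs from it. Alternatives were DESeq2 1.42.0, other lengths, filters and scalings, and leaving out each culture. The SE of a log2 ratio is its size over the square root of the F statistic.

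All 34 genes are accounted for, and other genes come from fixed lists of relatives and markers. Members and lists were chosen with earlier results of these data known. All 34 had the same symbol and coordinates in the RefSeq table of the same build.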

Additional observations from a re-analysis of the deposited data

Results flagged for a closer look

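In 3 of the 34 genes, all among the 25 that averaged 1 CPM or more, 1 library lay far from the other 3. Its gap to the nearest, as a part of the whole range, passed Dixon's 95% critical value for 4 samples. Chance gives this in about 1 of 20 groups, and 15.2% of all genes that averaged 1 CPM or more showed it, a share that 3 of 25 does not exceed. All were the lowest values and all in culture 4: Adora1 at 136 CPM against 185 to 189 CPM in cultures 1 to 3, Adora2b at 1.37 CPM against 5.71 to 6.52 CPM, and P2ry12 at 3.45 CPM against 4.61 to 4.84 CPM.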

How the results depend on the processing

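Of the 21 neighbouring pairs, 16 kept their direction and side of the threshold under all 11 alternatives; over the 231 values, 207 did so, 4 lost the call, 5 gained it and 15 changed direction. Values below are log2 ratios from edgeR. Without a length term P2rx4 over P2rx7 was -0.43, Adora2b over Adora2a -0.59 and Entpd2 over Entpd1 -1.02. With coding lengths the last pairs were -0.29 and -0.90, and with transcript lengths -0.10 and -0.71. With cultures 1 to 3 summed as 1 sample, P2rx7 over P2rx6 was -0.0355 and Adora2b over Adora2a -0.73. Entpd6 over Entpd4 was -0.84 with Entpd4b summed in. Leaving out 1 culture, P2rx7 over P2rx6 ran from -0.0117 to 0.0837, Adora2b over Adora2a from -0.33 to 0.75, Entpd2 over Entpd1 from 0.22 to 0.52 and Entpd6 over Entpd4 from 0.13 to 0.18, the last with edgeR adjusted p of 0.0051 to 0.135. The causes were not tested beyond the construction of each setting. Where both genes had to be expressed, 27 of 30 pairs differed in place of 60 of 63; DESeq2 gave 60 of 63. The median BCV of the listed genes was 0.0271 to 0.143 on leaving out 1 culture, lowest without culture 4. The number past 2-fold in culture 4 was 2 without culture 1. The number expressed was 24 under TMM and TPM scaling, 26 at 0.5 CPM, 18 at 5 CPM and 25 by the mean. At these depths levels near 3 counts, such as that of P2ry4, cannot be told from absence. No paired analysis was possible because the series has 1 group.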
